A study of Homo sapiens with 8 samples.

Results

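The genes described here are the core of the G1 restriction point: the D-type cyclins CCND1, CCND2 and CCND3, their kinases CDK4 and CDK6, the E-type cyclins CCNE1 and CCNE2, their kinase CDK2, the inhibitor CDKN1B (p27) and the retinoblastoma gene RB1. They were chosen by name, with earlier results of these data known. Each was read from the probe set that carries its single gene symbol and has the highest mean. All 10 were measured, each by 1 such probe set, among 18417 genes in all. The cells were U2OS, a human osteosarcoma line, grown in DMEM with fetal bovine serum. Cells of the CDK9 Knock Down group received siRNA against CDK9 and cells of the Nonspecific siRNA group a non-targeting siRNA, both at 10 nM for 72 h, with 4 arrays per group. The replicates are described as biological, and total RNA was hybridised to Affymetrix human gene arrays.

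In the textbook circuit, mitogens raise D-type cyclins, which activate CDK4 and CDK6. These kinases begin the phosphorylation of RB, and cyclin E with CDK2 completes it, which frees E2F factors to transcribe genes of S phase, CCNE1 among them. p27 restrains CDK2 and also helps D-type cyclins assemble with their kinases. U2OS cells retain RB and are known for lacking the CDK4 and CDK6 inhibitor p16. CDK9, the silenced gene, is not a kinase of this circuit but the catalytic subunit of P-TEFb, which lets paused RNA polymerase II proceed.

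Replicate 1 of both groups stood apart from the rest. Its arrays had median log2 expression values of 5.85 and 5.80, against 6.99 to 7.04 on the other 6 arrays. The replicate 1 pair is called set 1 and replicates 2 to 4 set 2, and the comparison was fitted with the set as a block, so that each array was set against arrays of its own scale. CDK9 itself was lower in every knock-down array, at 28.4% of the control signal (log2 difference -1.81 in set 1 and -1.82 in set 2). Of 8 osteoblast lineage and mesenchymal markers 7 read above the lowest 30% of genes, ALPL being the exception, and of 9 measured markers of other cell types 1 did, the keratin gene KRT19. RUNX2 (-0.60), MSX2 (-0.56), COL1A1 (-0.51) and VIM (-0.19) of the first list were lower after CDK9 silencing (limma adjusted p = 0.000344, 0.00354, 0.0011 and 0.0323). COL1A2 (-0.23, adjusted p = 0.0884) and SPARC (-0.23, adjusted p = 0.178) did not pass. ALPL (0.07, adjusted p = 0.664) and CDH2 (0.11, adjusted p = 0.352) had the other sign and did not pass. Of the 3 epithelial markers, EPCAM (dim) was higher by 0.32 (limma adjusted p = 0.0366), while CDH1 (-0.06, adjusted p = 0.726) and KRT19 (-0.14, adjusted p = 0.249) did not pass. Summed over the 9 markers of other cell types, log2 values ran from 40.1 to 50.6 on the knock-down arrays and from 39.9 to 50.5 on the control arrays. Over the 8 markers of the first list the sums ran from 61.18 to 73.97 and from 64.25 to 75.86. Each range spans both sets and so their unlike scales. The part of these marker differences in the results below was not tested. All 10 G1 genes read above the lowest 30%.

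Of the 10 genes, 2 rose (RB1 and CCND1), 1 fell (CCNE1) and 7 did not pass (limma with the set as a block, adjusted p under 0.05 by Benjamini-Hochberg across all genes). Over all genes tested, 14.2% passed, 6.73% higher and 7.47% lower. Differences were small throughout: they ran from -0.21 to 0.26 on the log2 scale, with a median of 0.13, against -0.0016 over all genes. By set, the medians of the 10 genes were 0.12 in set 1 and 0.15 in set 2. In RNA of whole cultures, a change in the share of cells in a phase of the cycle and a change within each cell cannot be told apart. Without a block 0 of the 10 passed in limma, and 0 had an unadjusted p under 0.05. Over all genes 0 passed in that fit, and 0.277% had an unadjusted p under 0.05.

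**Figure D1:**
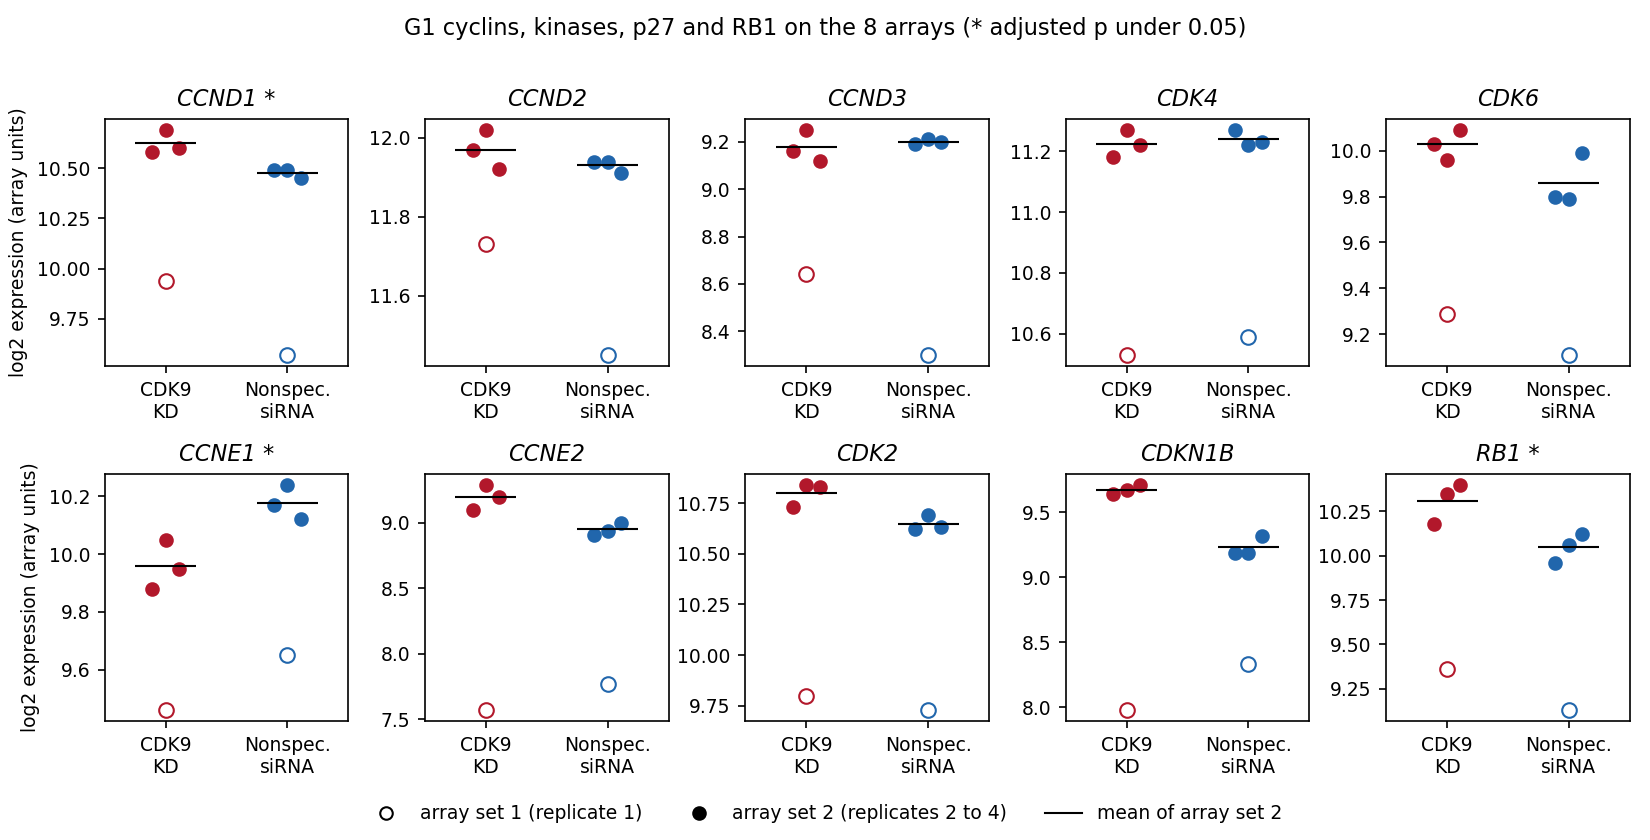
Log2 expression (y axis, array units, a separate scale for each gene) of the 10 G1 genes in CDK9 Knock Down cells (CDK9 KD, red) and Nonspecific siRNA cells (blue). Open points are set 1, filled points set 2 and lines the means of set 2; for RB1 the 3 knock-down arrays of set 2 read 10.18 to 10.40 and the 3 control arrays 9.96 to 10.12.

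Among the D-type cyclins, CCND1, which encodes cyclin D1, read 9.94, 10.58, 10.69 and 10.60 in CDK9 Knock Down cells (replicates 1 to 4, as for every gene below), against 9.57, 10.49, 10.49 and 10.45 in Nonspecific siRNA cells. Every knock-down array was above every control array of its own set. The difference was 1.15-fold (log2 0.20 ± 0.06 SE, n = 4 per group, limma adjusted p = 0.0490). It was 0.37 in set 1 and 0.15 in set 2. The call was marginal. With a replicate-number block the limma adjusted p was 0.104, and in set 2 alone it was 0.0885. It lay between 0.0567 and 0.125 when any 1 of the 8 arrays was left out.

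CCND2, which encodes cyclin D2, read 11.73, 11.97, 12.02 and 11.92 in CDK9 Knock Down cells, against 11.45, 11.94, 11.94 and 11.91 in Nonspecific siRNA cells. The groups overlapped in set 2, and the log2 difference of 0.10 did not pass (95% interval -0.03 to 0.23, limma adjusted p = 0.302). Most of it lay in set 1, where it was 0.28, against 0.04 in set 2. CCND3, which encodes cyclin D3, read 8.64, 9.16, 9.25 and 9.12 in CDK9 Knock Down cells, against 8.30, 9.19, 9.21 and 9.20 in Nonspecific siRNA cells. Its groups overlapped as well, the log2 difference was 0.06 (interval -0.10 to 0.23, limma adjusted p = 0.620), and its sign changed from 0.34 in set 1 to -0.03 in set 2. All 3 D-type cyclins were thus higher in the knock-down array of set 1 by 0.28 to 0.37, while in set 2 only CCND1 had groups that did not overlap. A test of whether the group difference itself differs between the array sets did not pass for CCND1, CCND2 or CCND3 (limma interaction, adjusted p = 0.260, 0.196 and 0.104).

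The D-cyclin kinases did not pass. CDK4 read 10.53, 11.18, 11.27 and 11.22 in CDK9 Knock Down cells, against 10.59, 11.27, 11.22 and 11.23 in Nonspecific siRNA cells, values that overlapped in set 2. The difference of -0.03 had the tightest 95% interval of the 10 genes, -0.14 to 0.08, or 91.1% to 105% of the control signal. CDK6 read 9.29, 10.03, 9.96 and 10.09 in CDK9 Knock Down cells, against 9.11, 9.80, 9.79 and 9.99 in Nonspecific siRNA cells. Nonspecific siRNA replicate 4 lay between the knock-down arrays of set 2, while the other 2 control arrays of that set lay below them. The difference of 0.17 was nearly alike in both array sets (0.18 and 0.17), and its 95% interval of 0.03 to 0.31 lay above 0, but it did not pass after adjustment over all genes (limma adjusted p = 0.109).

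Of the E-type cyclins, CCNE1 fell and CCNE2 did not pass. CCNE1, which encodes cyclin E1, read 9.46, 9.88, 10.05 and 9.95 in CDK9 Knock Down cells, against 9.65, 10.17, 10.24 and 10.12 in Nonspecific siRNA cells. Every knock-down array was below every control array of its own set. CCNE1 fell to 86.4% of the control signal (log2 difference -0.21 ± 0.06 SE, n = 4 per group, limma adjusted p = 0.0356), with -0.19 in set 1 and -0.22 in set 2. Its adjusted p was 0.0590 under a replicate-number block, 0.0564 with arrays centred on their medians and 0.0488 in set 2 alone. It also missed the threshold without CDK9 Knock Down replicate 2 or 4 or Nonspecific siRNA replicate 2, 3 or 4 (limma adjusted p = 0.0911, 0.0772, 0.0850, 0.118 and 0.0651).

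CCNE2, which encodes cyclin E2, read 7.57, 9.10, 9.29 and 9.20 in CDK9 Knock Down cells, against 7.77, 8.91, 8.94 and 9.0 in Nonspecific siRNA cells. In set 2 all 3 knock-down arrays were above the 3 controls, and in set 1 the knock-down array was below its control. The log2 difference over all arrays was 0.13 (95% interval -0.06 to 0.33, limma adjusted p = 0.360). It was 0.25 in set 2 alone, where it passed (limma adjusted p = 0.0338), and -0.20 in set 1. The difference between the sets did not pass (limma interaction, adjusted p = 0.106).

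CDK2, the kinase partner of both E-type cyclins, read 9.80, 10.73, 10.84 and 10.83 in CDK9 Knock Down cells, against 9.73, 10.62, 10.69 and 10.63 in Nonspecific siRNA cells. Each knock-down array was above the controls of its set, by 0.07 in set 1 and by a mean of 0.15 in set 2. The log2 difference of 0.13 ± 0.05 (SE, n = 4 per group) had a 95% interval of 0.02 to 0.25 and did not pass over all genes (limma adjusted p = 0.12).

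CDKN1B differed between the sets. It read 7.98, 9.64, 9.67 and 9.71 in CDK9 Knock Down cells, against 8.33, 9.19, 9.19 and 9.32 in Nonspecific siRNA cells. In set 2 the 3 knock-down arrays stood 0.44 above the controls, the largest difference of the 10 genes in that set, and CDKN1B passed there (limma adjusted p = 0.00269, SE 0.05, n = 3 per group). In set 1 the knock-down array was 0.35 below its control. Over all arrays the log2 difference was 0.24, with the widest interval of the 10 genes (-0.04 to 0.52, limma adjusted p = 0.243). Subtracting the set 2 value from the set 1 value gave -0.78, which passed (limma interaction, adjusted p = 0.0259), which 2.14% of all genes did. It was the only 1 of the 10 that passed this test, which rests on a single pair of arrays in set 1. It missed the threshold without CDK9 Knock Down replicate 3 or Nonspecific siRNA replicate 2 or 3 (adjusted p = 0.0670, 0.0738 and 0.0811).

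RB1, the pocket protein gene on which the kinases act, read 9.36, 10.18, 10.35 and 10.40 in CDK9 Knock Down cells, against 9.13, 9.96, 10.06 and 10.12 in Nonspecific siRNA cells. Every knock-down array was above every control array of its own set. RB1 rose 1.2-fold (95% interval 1.08 to 1.32, log2 difference 0.26 ± 0.06 SE, n = 4 per group, limma adjusted p = 0.0275). The difference was 0.23 in set 1 and 0.27 in set 2. Under a replicate-number block 1 gene of the 10 rose, RB1 (limma adjusted p = 0.0289), and 0 fell. In that setting 9.17% of all genes passed, 4.41% higher and 4.75% lower. It passed in set 2 alone (adjusted p = 0.0429) but not without CDK9 Knock Down replicate 3 or 4 or Nonspecific siRNA replicate 2 or 3 (adjusted p = 0.0803, 0.0678, 0.0819 and 0.0733).

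**Figure D2:**
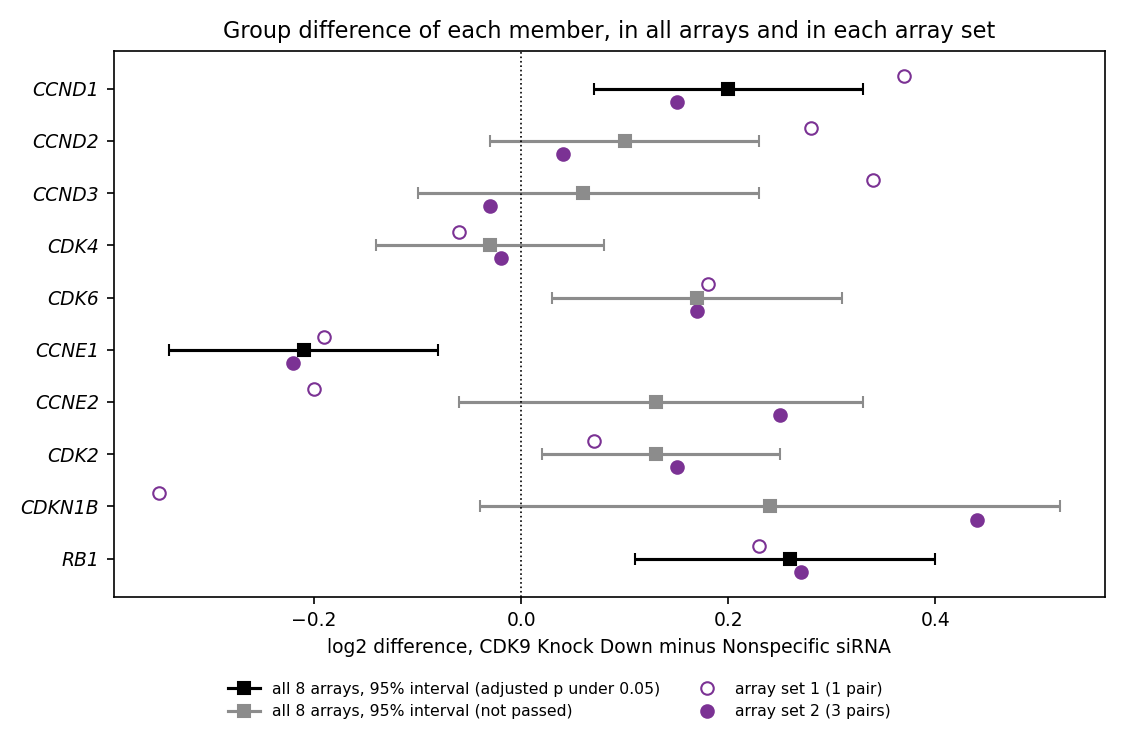
Log2 difference (x axis, CDK9 Knock Down minus Nonspecific siRNA) of each gene over all 8 arrays with its 95% interval (squares), and in set 1 (open circles) and set 2 (filled circles). RB1, CCNE1, CDK6 and CDK4 have circles that nearly coincide, while those of CDKN1B lie at -0.35 and 0.44.

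The sign of the difference was the same in both sets except for CCND3, CCNE2 and CDKN1B. The share of all genes for which it was the same is not given, so this agreement is only described. In set 2 the groups were apart for 6 genes (CCND1, CCNE2, CDK2, CDKN1B and RB1 higher, CCNE1 lower), which was so for 38.1% of all genes, 18.7% higher and 19.5% lower. For 4 of the 6 set 1 went the same way, and 25.3% of all genes met both conditions. In set 2 alone 3 genes rose (CCNE2, CDKN1B and RB1) and 1 fell (CCNE1), where 18.1% of all genes passed, 9.52% higher and 8.57% lower. For RB1, CCND1, CCNE1 and CDK2, taken singly, the exact permutation test (two-sided, 40 arrangements within sets) gave p = 0.05, its lowest possible value. Any gene that meets both conditions gets this value, so it adds nothing to that count. For the other genes the same test gave p from 0.1 (CDK6) to 0.75 (CCND3).

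Promoter sequence was at hand for some of these genes. RefSeq windows (GRCh38.p14) matched CCND3, CDK4, CDK6, CCNE1, CDKN1B and RB1, and the 250 bases before each start were searched on both strands. The windows of CCNE1, the cyclin that fell, and CDKN1B, the gene that differed between sets, are shown. Both end at the annotated start of the gene and lie on the plus strand, and capitals mark the GC box GGGCGG or its complement, a site of the Sp1 family.
CCNE1, chr19:29811741-29811990: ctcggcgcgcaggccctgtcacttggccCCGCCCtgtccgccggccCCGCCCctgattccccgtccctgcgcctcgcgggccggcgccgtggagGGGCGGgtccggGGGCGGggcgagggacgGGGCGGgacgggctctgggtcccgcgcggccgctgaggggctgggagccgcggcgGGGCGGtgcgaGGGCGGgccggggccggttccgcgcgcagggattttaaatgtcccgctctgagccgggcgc
CDKN1B, chr12:12717118-12717367: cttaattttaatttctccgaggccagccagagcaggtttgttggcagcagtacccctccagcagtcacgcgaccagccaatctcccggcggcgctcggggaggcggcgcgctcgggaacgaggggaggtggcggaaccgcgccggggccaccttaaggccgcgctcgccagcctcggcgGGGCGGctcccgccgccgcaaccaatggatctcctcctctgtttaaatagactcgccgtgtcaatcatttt
CCNE1 held 7 GC boxes and CDKN1B 1, and the windows at the annotated starts of CDK4 and CDK6 held 3 each. In all, 6 of the 9 windows of these genes held at least 1, as did 42.5% of 34943 RefSeq windows of this length. The E2F words searched (TTNNCGC with C or G at each N), which 10.8% of windows held, were in 0 of the 9 windows of these 6 genes. So few windows cannot tell 0 from that share. The words may still occur outside the windows, other forms of E2F site were not searched, and a match is not a bound site. Of the 9 windows, 4 end at the annotated start of the gene, those of CDK4, CCNE1 and CDKN1B and 1 of CDK6. The others, 1 of CDK6, 1 of RB1 and all 3 of CCND3, lie inside the gene and are not shown.

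Other genes of the circuit were read from lists by role, 51 measured of 53. The lists were drawn up with earlier results of these data known, so their counts describe them and do not test them. Of the 51, 11 rose and 2 fell, beside the 14.2% of all genes that passed, 6.73% higher and 7.47% lower. The counts by list below stand beside these same shares. The median log2 difference of the 51 was 0.09, with 0.01 in set 1 and 0.09 in set 2. Under a replicate-number block 4 rose (E2F5, FBXO4, CDC6 and MCM6) and 2 fell (CDKN2B and USP28). In that setting 9.17% of all genes passed, 4.41% higher and 4.75% lower. In set 2 alone 11 rose and 5 fell, where 18.1% of all genes passed, 9.52% higher and 8.57% lower.

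Of 5 measured CDK inhibitors 1 fell and 0 rose. CDKN2B, which encodes the CDK4 and CDK6 inhibitor p15, read 6.29, 8.33, 8.19 and 8.48 in CDK9 Knock Down cells, against 6.47, 8.87, 8.72 and 8.96 in Nonspecific siRNA cells. It was below the controls in every array of its set, at 74.0% of the control signal (log2 difference -0.43 ± 0.09 SE, n = 4 per group, limma adjusted p = 0.0121). CDKN1A, which encodes p21, differed by -0.01 (adjusted p = 0.952). CDKN2A, the p16 gene, averaged 6.33 over the 8 arrays, just above the 6.14 that bounds the lowest 30% of genes, and differed by -0.14 (adjusted p = 0.327).

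Of 12 RB family, E2F and DP genes 5 rose and 0 fell, where 6.73% and 7.47% of all genes did. The list median was 0.14. The activator E2Fs E2F1 (1.16-fold) and E2F2 (1.21-fold), the pocket protein partner E2F5 (1.26-fold), the repressor E2F8 (1.19-fold) and the DP subunit TFDP1 (1.14-fold) rose, with limma adjusted p values of 0.0439, 0.0298, 0.0350, 0.0323 and 0.0352. Under a replicate-number block E2F5 was the 1 that passed (adjusted p = 0.0238). E2F1, E2F2, E2F8 and TFDP1 missed the threshold there (limma adjusted p = 0.092, 0.064, 0.072 and 0.091). In set 2 alone E2F1, E2F5 and E2F8 missed the threshold (adjusted p = 0.0906, 0.0651 and 0.0658). There 3 genes of the list rose and 1 fell, where 9.52% and 8.57% of all genes did. The RB relatives RBL1 (p107) and RBL2 (p130) differed by 0.09 and -0.01 (adjusted p = 0.407 and 0.940).

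In the list of protein turnover 1 of 10 genes rose, 1 fell and 8 did not pass, with a list median of 0.1. Those that passed had the largest differences of all list genes, and CDC6 of the S-phase list was close to them (0.7). FBXO4, an F-box protein described as a ubiquitin ligase subunit for cyclin D1, read 6.69, 8.31, 8.33 and 8.36 in CDK9 Knock Down cells, against 6.06, 7.47, 7.27 and 7.55 in Nonspecific siRNA cells. It rose 1.79-fold (log2 0.84 ± 0.08 SE, n = 4 per group, limma adjusted p = 0.000303). USP28, a deubiquitinase that opposes the cyclin E and MYC ligase FBXW7, read 8.59, 9.99, 9.96 and 10.00 in CDK9 Knock Down cells, against 9.43, 10.59, 10.68 and 10.73 in Nonspecific siRNA cells. USP28 fell to 60.6% of the control signal (log2 -0.72 ± 0.05 SE, n = 4 per group, limma adjusted p = 0.000146). In both genes the groups were apart within each set. These are transcript levels, and no protein was measured.

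Of 7 genes of CDK activation and inhibitory phosphorylation 1 rose, the inhibitory kinase gene PKMYT1 (0.18, limma adjusted p = 0.0445, and 0.0933 under a replicate-number block). Of 17 measured E2F target genes of S phase 4 rose and 0 fell. CDC6, an origin licensing factor, rose 1.62-fold, MCM6 of the replicative helicase 1.26-fold, the nucleotide synthesis gene TYMS 1.18-fold and the sliding clamp gene PCNA 1.16-fold (limma adjusted p = 0.000168, 0.00213, 0.0206 and 0.0406). TYMS and PCNA missed the threshold under a replicate-number block (adjusted p = 0.0598 and 0.0977). By set, the median over these S-phase genes was -0.02 in set 1 and 0.14 in set 2. CDK1, the mitotic kinase, was the 1 gene of the lists that passed the test between the sets (limma interaction, adjusted p = 0.0444). It differed by -0.40 in set 1 and 0.17 in set 2. Over all genes 2.14% passed this test, which rests on a single pair of arrays in set 1.

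**Figure D3:**
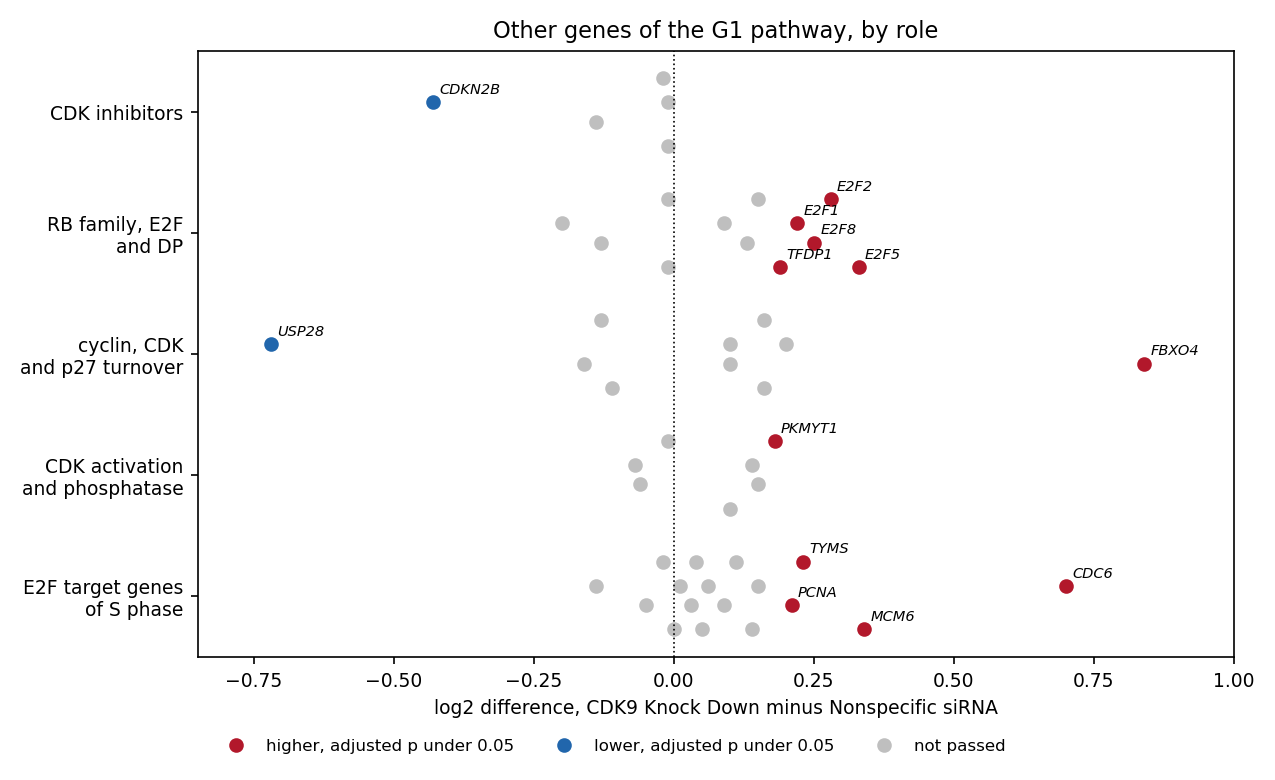
Log2 difference (x axis, CDK9 Knock Down minus Nonspecific siRNA) of 51 other genes of the circuit, in rows by role, with height within a row only separating points. Genes past adjusted p 0.05 are named, red where higher and blue where lower; FBXO4 at 0.84 and USP28 at -0.72 lie farthest from 0.

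The genes whose pattern was most like that of RB1, the member with the largest called difference, were DAAM2, C15orf40 and FBXL13. After centring on each array set, their values differed from those of RB1 by a root mean square of 0.019, 0.032 and 0.033 log2 units over the 8 arrays, against a median of 0.179 over all genes. DAAM2 read 5.06, 6.90, 7.06 and 7.13 in CDK9 Knock Down cells, against 4.84, 6.69, 6.79 and 6.89 in Nonspecific siRNA cells. Its steps between arrays follow those of RB1 in both groups. They were chosen for this likeness, so no test is given.

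**Figure D4:**
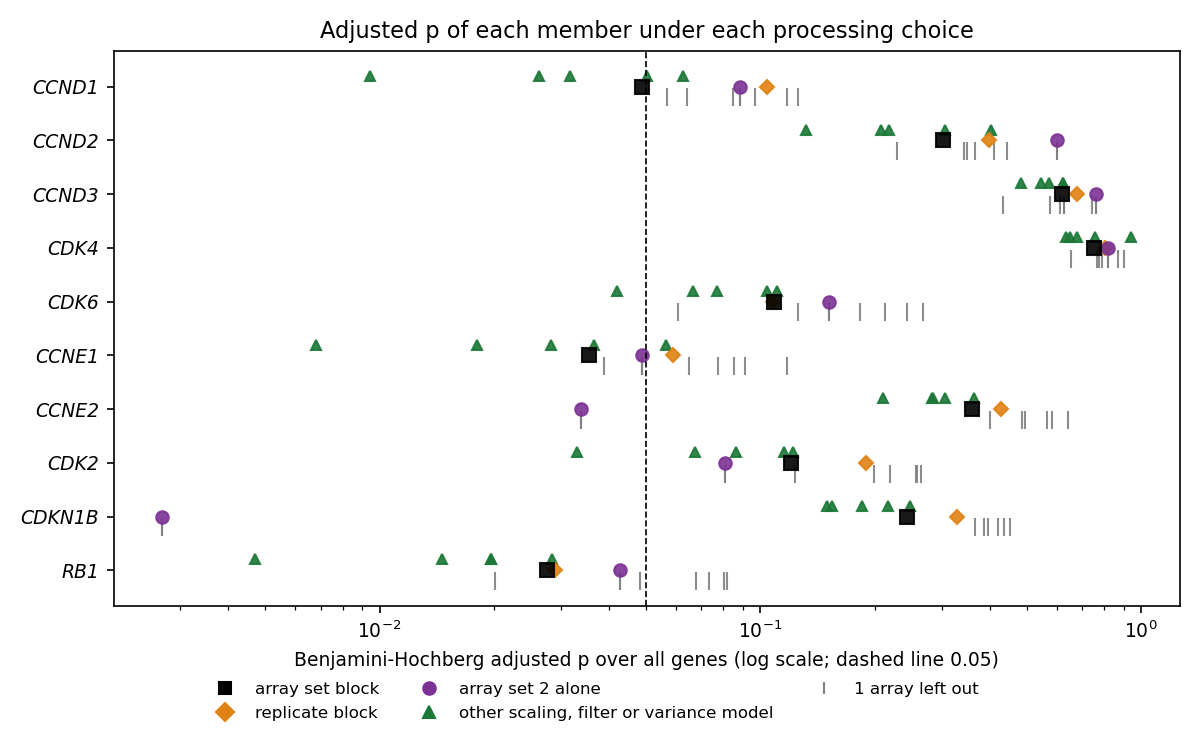
Benjamini-Hochberg adjusted p of each gene over all genes (x axis, log scale) with the set as a block (squares), under a replicate-number block (diamonds), in set 2 alone (circles), under other scaling, filter or variance choices (triangles) and with 1 array left out (ticks). The fit without a block, in which all 10 genes had an adjusted p of 1, is not drawn; RB1 is the gene left of the dashed line at 0.05 for square, diamond and circle alike, and CCND1 has all of its ticks to the right of it.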

How the data were processed

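Total RNA of 8 U2OS cultures was measured on Affymetrix human gene arrays. The authors deposited 1 table of log2 expression values for 33297 probe sets. RMA, Affymetrix Expression Console 1.1, limma and build hg19 are named, per the submitters' processing notes, with no role given. Intensities behind the values were not used here, so precision rests on the number of arrays.

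Single symbols in the platform annotation covered 19460 probe sets, while 1754 had several and 12083 had none. The highest-mean single-symbol probe set was kept for each of 18417 genes. Array pairs with mostly identical values numbered 0. The fit used lmFit and eBayes of limma 3.58.1 (R 4.3.3), two-sided with array set as a block, and was tested first on simulated data; the difference between sets was tested as an interaction. Figures used Python 3.11.15 and matplotlib 3.10.9. The genes, lists and tests were chosen with earlier results of these data known. All 10 members were named, every list gene that passed, and CDKN2A, CDKN1A, RBL1, RBL2, E2F1 and CDC6 whatever their result.

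The titles number replicates alike in the groups. Same-numbered arrays deviated together from their group means, with correlations of 0.822, 0.537, 0.494 and 0.607, above the limit of 0.1 for pairing. Within array set 2 they correlated at 0.108, -0.011 and 0.170 for replicates 2 to 4, so the array sets underlie most of it. Values under a replicate-number block are given where a call changes.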

Additional observations from a re-analysis of the deposited data

Results flagged for a closer look

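On the deposited scale, replicate 1 stood far below the other 3 arrays of its group, as judged by the gap to the nearest array divided by the group's range (above Dixon's 95% critical value for 4 arrays), in 14 of the 20 sets of 4 values. Chance marks some array of a group, at either end, in about 1 group in 20. In CDK9 Knock Down cells the ratio was 0.849 for CCND1, 0.880 for CDK4, 0.833 for CDK6, 0.888 for CCNE2, 0.896 for CDK2 and 0.958 for CDKN1B. In Nonspecific siRNA cells it was 0.952 for CCND1, 0.947 for CCND2, 0.980 for CCND3, 0.926 for CDK4, 0.922 for CCNE2, 0.929 for CDK2, 0.866 for CDKN1B and 0.837 for RB1. These ratios follow the lower scale of array set 1, whose medians were 5.85 and 5.80.

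For CDKN1B, the group difference in array set 1 less the one in array set 2 came to -0.78 (limma interaction, adjusted p = 0.0259), with opposite signs in the 2 sets. Its cause was not tested.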

How the results depend on the processing

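Of the 10 genes, 3 passed with array set as a block, 0 without a block, 1 with a replicate-number block (RB1) and 5 with a mean-variance trend (CDK6 and CDK2 in addition). Leaving out 1 array gave 0 to 4: 1 without CDK9 Knock Down replicate 2 or 3 or Nonspecific siRNA replicate 4, 0 without CDK9 Knock Down replicate 4 or Nonspecific siRNA replicate 2 or 3, and 4 without replicate 1 of either group, which equals array set 2 alone. Of the list genes, 13 passed, against 0 without a block (1 at an unadjusted p under 0.05) and 6 with that block. Leaving out 1 array gave 5 to 16, with 5 or 6 without CDK9 Knock Down replicate 3 or 4 or Nonspecific siRNA replicate 2, 3 or 4. Of all genes, 2615 passed, against 0 without a block in limma (51 at an unadjusted p under 0.05) 1688 with that block and 3327 with a mean-variance trend, and 1520 to 3331 with 1 array left out, the lowest without Nonspecific siRNA replicate 3. CCND3 changed sign to -0.03 in array set 2 alone, and ranged from -0.03 to 0.10 with 1 array left out. CCND1 missed the threshold with all probe sets tested (adjusted p = 0.0504) and after renewed quantile normalization (0.0625). Of differences that never passed, CDKN1A was 0.04 in array set 2 alone and 0.01 with arrays centred on their medians or quantile normalized (-0.05 to 0.04 with 1 array left out), RBL2 was 0.08, 0.01 and 0.01 (-0.05 to 0.08), and CDK1 ranged from -0.03 to 0.17 with 1 array left out. Of the 16 alternatives, the call was lost in 1, the fit without a block, for FBXO4, USP28, CDC6, MCM6 and CDKN2B. It was lost in 7 for E2F2 and TYMS, in 8 for E2F5, TFDP1 and PCNA, in 10 for E2F1 and E2F8, and in 11 for PKMYT1. Array set 2 alone and the fits without replicate 1 of either group are the same fit. A call lost in that fit is thus counted 3 times. Of the 10 G1 genes, 1 passed the test between array sets, as did 2.14% of all genes. Without dim genes 3 passed (CCND3 and CCNE2 in addition), and with a mean-variance trend 4 (CCND2 as well). With 1 array of set 2 left out 0 to 1 passed. Shares of all genes in these other settings are not given, so the counts there say nothing particular about the 10 genes. The cause of these changes was not tested. Without a block the difference between sets enters the residual, with the same log2 differences. Except for CCND3, each of the 10 genes kept the sign of its log2 difference in all alternatives run.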
